A study of Mus musculus with 6 samples.

Results

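The genes described here act in mitosis, the step in which a cell condenses its duplicated chromosomes, attaches them to a spindle, separates them and divides. They are cyclins and CDK1 with their partners, mitotic kinases, spindle checkpoint and kinetochore proteins, anaphase regulators, spindle and cytokinesis proteins, condensins and transcription factors, and kinesin motors were left out except Cenpe, which is in the list as a kinetochore protein. The list held 35 symbols, matched to probesets that carry 1 gene symbol, with the brightest taken where a gene had several. By this rule 34 of the 35 were measured, of 19938 genes in all, and Ccnb1 had no such probeset.

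The 6 samples were bone marrow cells sorted as Lin-Kit+Sca-1+, the fraction that holds haematopoietic stem cells and multipotent progenitors, from young adult wild-type FVB/nJ mice. In 3 samples the cells had received the control lentivirus pCAD-IRES-GFP and in 3 the lentivirus carrying mouse Hlx, a homeobox transcription factor gene, which the labels write as pCAD-IRES-GFP-Hlx and as pCAD-HLX-IRES-GFP. All were kept for 2 days with FBS, mIL-3, mIL-6, mSCF and 8 µg/ml polybrene, and sorted for GFP, so that the control cells had also been infected, cultured in growth-promoting cytokines and sorted. RNA of 5000 to 10000 cells per sample was amplified from 3 ng, and no label ties a replicate number to a mouse or a culture, so the replicate spread behind each p-value may be technical.

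The target gene was examined on every array, and markers of the gate and of other cells by their mean over the 6 arrays. Hlx stood at log2 levels of 6.99, 7.29 and 7.62 on control arrays 1 to 3 and at 10.75, 9.74 and 10.28 on HLX arrays 1 to 3, so every HLX array was above every control array. The deposited arrays had median log2 levels between 6.32 and 6.4. Of 6 measured stem and progenitor surface genes 5 lay above the median probeset level, Slamf1 being the exception, and Ly6a was not measured by the rule. With HLX 5 of these 6 were lower, led by Flt3, whose HLX arrays all lay below the controls (-0.68 ± 0.16, SE, n = 3 per group; limma unadjusted p = 0.00369, adjusted p = 0.901). By their mean, all 7 mature granulocyte genes, all 6 mast cell and basophil genes and 6 of 7 T and NK cell genes lay below that median. Above that median lay all 5 measured megakaryocyte genes, 3 of 4 erythroid and 2 of 4 B cell genes. So did 4 of 7 macrophage and monocyte genes and 3 of 6 stromal and endothelial genes. On single arrays Cpa3 (7.47) and Mcpt8 (6.60) on control array 1, Cxcr2 (7.17) on HLX array 2 and Cd3e (6.41 and 6.48) on control array 3 and HLX array 3 lay above it. Of 7 macrophage and monocyte genes 6 were higher with HLX. The mean log2 level of the 7 was 6.20 to 6.35 over the control arrays and 6.61 to 7.03 over the HLX arrays. Of the 7 mature granulocyte genes 4 were higher with HLX, and their list had a median log2 difference of 0.0155. The granulocyte receptor gene Cxcr2, from that list, was 1.34 ± 0.53 higher on the log2 scale, with its highest value on HLX array 2. The part of these shifts in the results on mitosis genes was not tested.

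Mitosis is driven by cyclin-bound CDK1. It ends when the anaphase-promoting complex, switched on by Cdc20, marks cyclin B and securin for destruction, and the spindle checkpoint holds that step back until every kinetochore is attached. Mitotic genes are transcribed mainly in the G2 phase through the MuvB complex with B-MYB and FOXM1, which is recruited by the cell cycle homology region of their promoters, while NF-Y binds the CCAAT boxes nearby. In resting cells, as most stem cells in marrow are, the same element helps to keep these genes off, and their level in a population is commonly read as a measure of how many cells are dividing.

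Many promoters of the members held letters already known from mitotic gene promoters, so their share is a description and not a test. RefSeq promoter windows (GRCm38.p6, 250 bases before to 50 after the annotated start) were found for 27 of the 34 measured genes, in 28 windows. The letters of the cell cycle homology region, searched as TTTGAA and TTCGAA on both strands, stood in 20 of the 27 genes (74.1%), against 19.0% of 15614 measured genes with a window. CCAAT, searched on both strands, stood in 22 of 27 (81.5%), against 41.7%, and at least 2 copies in 16 of 27 (59.3%), against 14.3%. Counted by window, 75% of the members' windows held the first motif, against 19.2% of all 32851 windows, and 82.1% held CCAAT, against 37.4%. Both motifs stood in 19 members (70.4%), against 7.69% of measured genes. In these 19 the shortest distance from the first base of a CCAAT to that of the next homology region letters downstream was 9 to 153 bases, with a median of 32. Members with the homology region letters had a median log2 difference between vectors of 0.11 (17 of 20 above 0). Those with a window but without the letters had 0.0082 (4 of 7 above 0), which is given as a description. Ccna2, Cdc25c, Aurkb, Tpx2, Dlgap5, Smc4 and Foxm1 had no window and are outside this split. The same split was not made over other genes, and a link between the letters and HLX was not tested. A match is a run of letters and not a measured binding site, and no match in a window says nothing of the factor.

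The windows of 3 members are shown in full, those with the smallest p between vectors among members with both motifs, with the motif letters in capitals and no overlap between motifs. They are Prc1 at chr7:80294201-80294500 (plus strand), Plk1 at chr7:122159185-122159484 (plus strand) and Ccnb2 at chr9:70421505-70421804 (minus strand), each written 5′ to 3′ along the gene.
Prc1: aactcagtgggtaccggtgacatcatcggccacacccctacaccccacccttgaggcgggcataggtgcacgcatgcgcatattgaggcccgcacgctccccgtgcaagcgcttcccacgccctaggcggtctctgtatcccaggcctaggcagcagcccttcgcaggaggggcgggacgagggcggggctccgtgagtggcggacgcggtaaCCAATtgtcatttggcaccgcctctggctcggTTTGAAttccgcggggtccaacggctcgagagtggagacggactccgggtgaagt
Plk1: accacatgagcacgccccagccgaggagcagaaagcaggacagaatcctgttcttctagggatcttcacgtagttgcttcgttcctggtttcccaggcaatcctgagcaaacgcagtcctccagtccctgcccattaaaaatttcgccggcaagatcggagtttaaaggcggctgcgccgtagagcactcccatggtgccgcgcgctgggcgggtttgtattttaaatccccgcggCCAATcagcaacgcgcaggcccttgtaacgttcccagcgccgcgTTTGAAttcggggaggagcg
Ccnb2: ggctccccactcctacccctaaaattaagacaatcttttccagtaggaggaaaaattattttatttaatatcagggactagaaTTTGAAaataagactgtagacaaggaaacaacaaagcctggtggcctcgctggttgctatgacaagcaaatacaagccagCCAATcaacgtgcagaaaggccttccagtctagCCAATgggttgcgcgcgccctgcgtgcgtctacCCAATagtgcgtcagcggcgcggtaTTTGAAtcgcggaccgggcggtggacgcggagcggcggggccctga
In Prc1 the homology region letters begin 32 bases downstream of the CCAAT, in Plk1 44 bases and in Ccnb2 25 bases downstream of the nearest of its 3 CCAAT boxes.

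**Figure D1:**
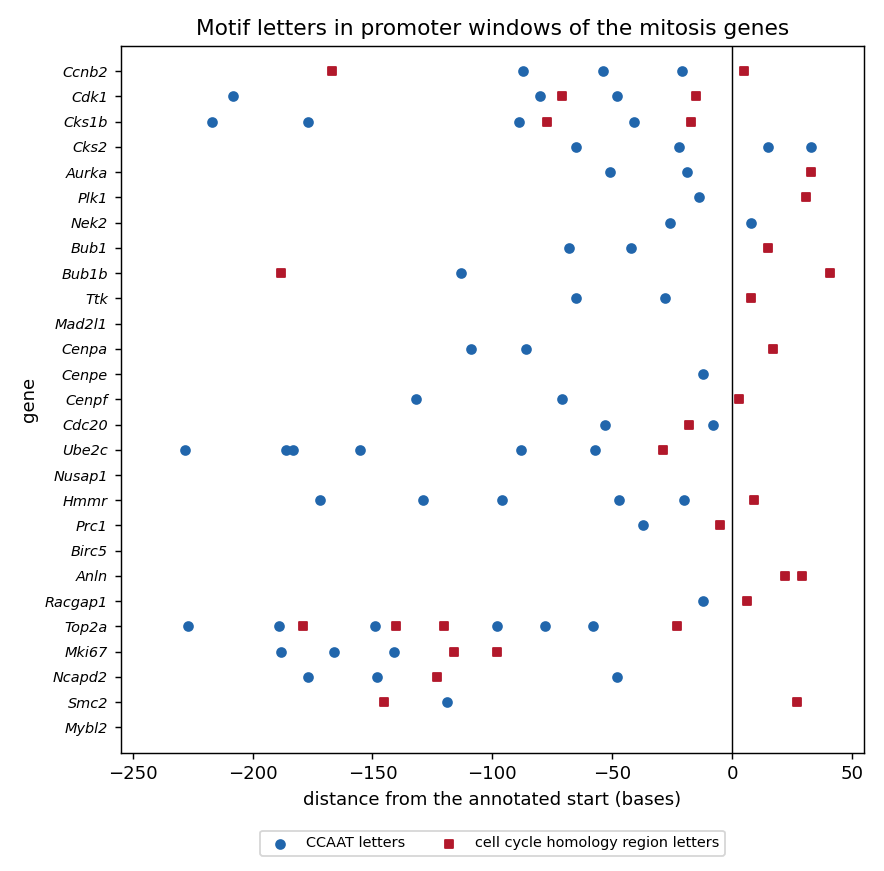
Positions of CCAAT letters (circles) and cell cycle homology region letters (squares) in 1 promoter window of each of 27 mitosis genes, against the distance from the annotated start in bases. In most genes with squares, these lie near the start with circles upstream of them, and Mad2l1, Nusap1, Birc5 and Mybl2 show neither.

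On balance the mitosis genes lay slightly above 0 with HLX, and no single member passed the adjusted test. Of the 34 measured genes 24 were above 0 and 10 below, and the log2 difference had a median of 0.068 and a mean of 0.080. The SD between replicates, pooled over both groups for each gene, had a median of 0.15 over the 34 members. Over all 19938 genes 47.5% were above 0 and the median was -0.0078, and over the 4376 genes in the same range of levels as the members 57.2% were above 0 and the median was 0.027. The largest differences were 0.38 for Prc1 and -0.13 for Mybl2. By limma's test with Benjamini-Hochberg adjustment over all genes, 0 of the 34 were called and the smallest adjusted p was 0.932, where 0 of all genes (0%) were called. Hlx itself, 7.75-fold higher with its vector, was not called either (limma adjusted p = 0.0782). At an unadjusted p under 0.05 stood 2 members, Prc1 and Plk1 (5.88%), both higher, against 4.8% of all genes (2.44% higher and 2.36% lower) and 7.40% of genes in the members' level range. This share was near the background. As these are bulk samples, a change in the number of mitotic cells and a change in RNA per cell cannot be told apart.

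**Figure D2:**
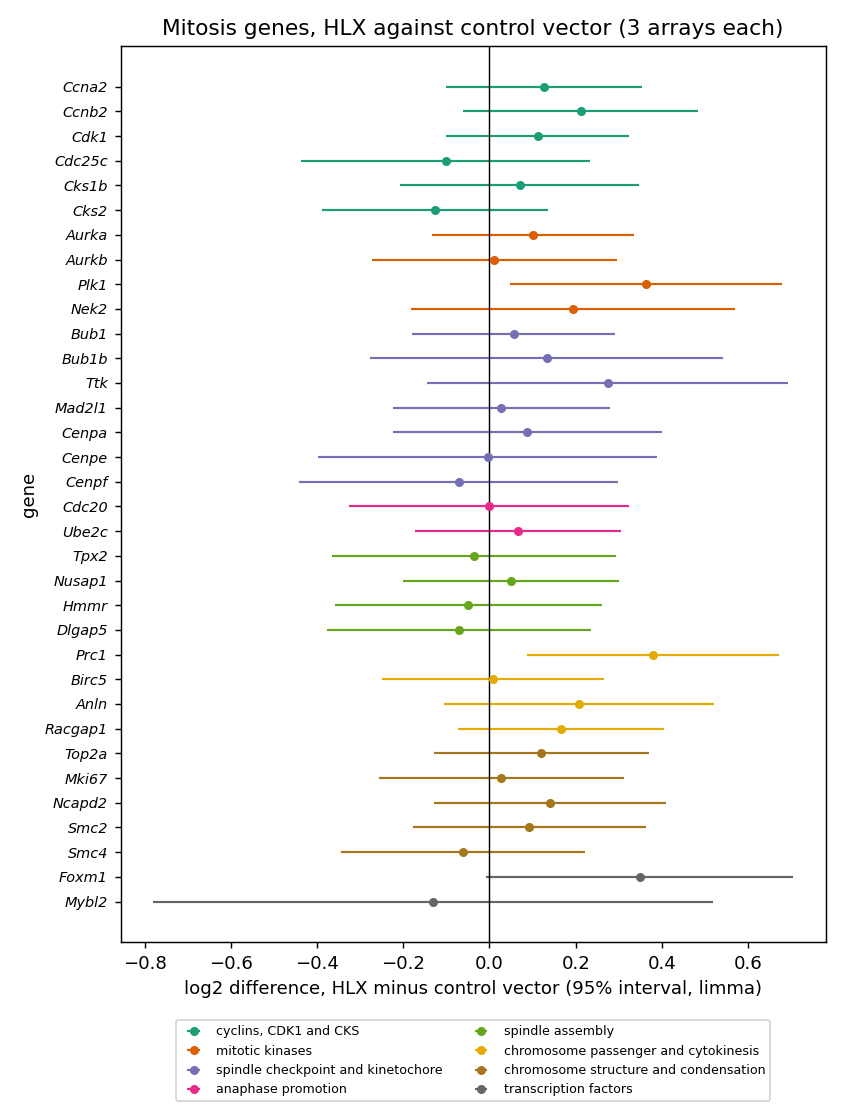
Log2 difference between HLX and control vector for each of 34 mitosis genes, with the 95% interval from limma (3 arrays per group), coloured by role. The intervals of Prc1 and Plk1 alone lie above 0, and no interval lies below it.

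The groups did not overlap in 6 members, all higher with HLX: Ccna2, Cdk1, Plk1, Prc1, Racgap1 and Foxm1. That is 17.6% of the members, against 9.19% of all genes without overlap in either direction, 4.34% of all genes higher without overlap and 7.18% of the genes in the members' level range. The count depended on the scaling of the arrays. It was 5 after centring each array on its median, where Aurka joined and Plk1 and Racgap1 left (14.7% of members against 7.45% of the genes in their level range and 5.8% of all genes). It was 3 after quantile normalization (Plk1, Prc1 and Racgap1, 8.82% of members against 5.53% and 4.82%) and 2 after cyclic loess (Plk1 and Prc1, 5.88% against 6.49% and 5.39%).

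Among the genes that bring a cell into mitosis, the cyclins and CDK1 lay slightly above 0. Ccna2, the cyclin of S phase and mitotic entry, stood at log2 levels of 10.29, 10.33 and 10.28 on control arrays 1 to 3 and 10.33, 10.55 and 10.39 on HLX arrays 1 to 3. Control array 2 and HLX array 1 nearly touched, HLX array 2 was the highest, and the difference was 0.13 ± 0.097 (SE, n = 3 per group). Ccnb2, a B-type cyclin that activates CDK1, stood at 10.68, 10.67 and 10.45 with control and 10.66, 10.85 and 10.93 with HLX, so HLX array 1 fell within the control values (0.21 ± 0.12). Cdk1, the catalytic subunit, differed by 0.11 ± 0.091, with a 95% interval from limma of -0.10 to 0.32.

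The partners and activators of CDK1 showed no common direction. Cdc25c, the phosphatase that activates CDK1, was among the dimmest members, at 8.06, 8.03 and 8.22 with control and 7.99, 8.26 and 7.75 with HLX. Its HLX values spanned the highest and the lowest of the 6 arrays (-0.10 ± 0.14). Cks1b and Cks2 encode small, closely related subunits of CDK complexes. Cks1b, the brightest member, stood at 11.52, 11.32 and 11.70 with control and 11.63, 11.59 and 11.53 with HLX, all within the control range (0.070 ± 0.12). Cks2 stood at 11.06, 11.11 and 10.91 with control and 10.74, 11.01 and 10.94 with HLX, with the lowest value on HLX array 1 (-0.13 ± 0.11). The 3 probesets of Cks2 gave differences of -0.13, -0.15 and -0.13. As the Cks genes are close in sequence, signal shared between their probes cannot be told apart here.

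All 4 mitotic kinase genes were above 0. Plk1, the polo kinase that acts from centrosome maturation to cytokinesis, stood at 9.16, 8.83 and 9.0 with control and 9.32, 9.56 and 9.19 with HLX. Its groups stood apart by a narrow margin between control array 1 and HLX array 3, and it was 1.29-fold higher (0.36 ± 0.13, SE, n = 3 per group; limma unadjusted p = 0.0298, adjusted p = 1). Nek2, a kinase of centrosome separation and the second dimmest member, stood at 7.95, 8.28 and 7.67 with control and 8.06, 8.15 and 8.27 with HLX. Here control array 2 was the highest of the 6 (0.19 ± 0.16). Aurka, the Aurora kinase of centrosomes and spindle poles, differed by 0.10 ± 0.10, and Aurkb, the Aurora kinase of the chromosome passenger complex, by 0.012 ± 0.12.

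Of 7 spindle checkpoint and kinetochore genes 5 were above 0, and none stood without overlap. Ttk, the kinase that starts checkpoint signalling at kinetochores, had one of the widest ranges, at 8.69, 9.12 and 8.57 with control and 8.90, 9.32 and 8.98 with HLX. Control array 2 was higher than HLX arrays 1 and 3, and the difference was 0.27 ± 0.18 (SE, n = 3 per group). The checkpoint kinase gene Bub1 differed by 0.056 ± 0.10 and Bub1b, whose product restrains Cdc20, by 0.13 ± 0.17. Mad2l1, which also binds Cdc20, was at 0.028 ± 0.11. The gene of the centromeric histone, Cenpa, was at 0.088 ± 0.13, and the kinetochore genes Cenpe and Cenpf were at -0.0041 ± 0.17 and -0.072 ± 0.16.

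The genes of anaphase promotion and of spindle assembly were close to 0. Cdc20 differed by -0.0016 ± 0.14 and Ube2c, a ubiquitin-conjugating enzyme of the anaphase-promoting complex, by 0.066 ± 0.10. Of the 4 spindle assembly genes 3 were below 0. Tpx2, which activates Aurora A on the spindle, was at -0.037 ± 0.14, the microtubule-binding protein gene Hmmr at -0.049 ± 0.13 and Dlgap5, which stabilises fibres to the kinetochore, at -0.071 ± 0.13. Nusap1, which bundles spindle microtubules, was at 0.050 ± 0.11. The median of this group was -0.043, the lowest of the 8 roles.

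The 4 genes of the chromosome passenger complex and cytokinesis were all above 0, with the highest median of the 8 roles, 0.19. Prc1, which bundles the antiparallel microtubules of the central spindle, stood at 9.18, 9.14 and 9.24 with control and 9.47, 9.81 and 9.42 with HLX. All HLX arrays lay above the narrow control range, with HLX array 2 the highest, and Prc1 was 1.30-fold higher (0.38 ± 0.13, SE, n = 3 per group; limma unadjusted p = 0.0180, adjusted p = 0.932). Racgap1, which with a kinesin forms the centralspindlin complex, stood at 8.30, 8.31 and 8.23 with control and 8.58, 8.44 and 8.32 with HLX, with HLX array 3 just above the controls (0.17 ± 0.10). Anln, a scaffold of the contractile ring, stood at 8.39, 8.48 and 8.54 with control and 8.69, 8.91 and 8.44 with HLX, where HLX array 3 fell within the control values (0.21 ± 0.13). Birc5, which encodes the passenger protein survivin, was at 0.0082 ± 0.11.

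Of 5 genes of chromosome structure 4 were above 0. Top2a, the topoisomerase that disentangles sister chromatids, stood at 11.09, 11.24 and 11.12 with control and 11.28, 11.40 and 11.13 with HLX. HLX arrays 1 and 2 were the highest of the 6 while HLX array 3 lay among the controls (0.12 ± 0.11). A second, dim Top2a probeset with a mean log2 level of 5.49 differed by 0.013. Mki67, the proliferation marker Ki-67 that coats mitotic chromosomes, was at 0.028 ± 0.12, and its 95% interval from limma ran from -0.26 to 0.31. Among condensin genes Ncapd2 was at 0.14 ± 0.11, Smc2 at 0.093 ± 0.12 and Smc4 at -0.062 ± 0.12.

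The 2 transcription factor genes had the largest ranges of all members and opposite signs. Foxm1, the forkhead activator of G2 and M phase genes, stood at 7.85, 8.35 and 8.20 with control and 8.40, 8.40 and 8.65 with HLX. HLX arrays 1 and 2 lay just above control array 2, and the difference was 0.35 ± 0.15 (SE, n = 3 per group; limma unadjusted p = 0.0537, adjusted p = 1). Mybl2, which encodes B-MYB, stood at 8.28, 8.82 and 8.08 with control and 8.13, 7.85 and 8.80 with HLX. The highest values were on control array 2 and HLX array 3, the lowest on HLX array 2, and the difference was -0.13 ± 0.28.

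**Figure D3:**
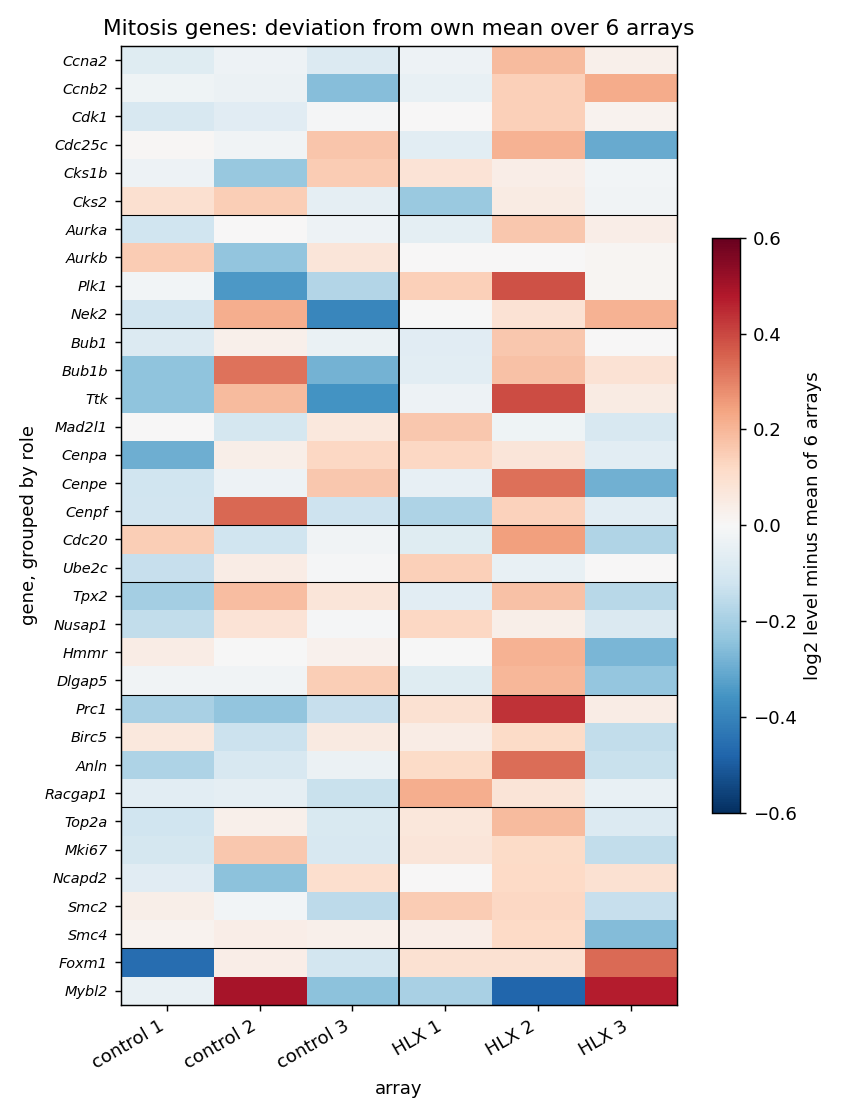
Log2 level of each of 34 mitosis genes on each array minus the gene's mean over the 6 arrays, in rows grouped by role with control arrays left of the line. Red is above and blue below the gene's mean, and the column of HLX array 2 is red in 31 of 34 rows.

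By array, the higher values lay mostly on 1 of the 3 HLX arrays. On HLX array 2, 31 of the 34 members were above their own mean over 6 arrays and 17 had their highest value, with a median deviation of 0.14. The same array had a median deviation of 0.038 over the brightest 30% of genes and -0.045 over all genes. On HLX array 1 the members' median deviation was 0.00021 (17 of 34 above) and on HLX array 3 it was -0.031 (13 of 34 above). The control arrays 1 to 3 stood at -0.075, -0.0076 and -0.035, with 9, 16 and 12 members above their mean, so HLX array 3 lay within the control arrays in the deposited values. After median centring it lay below all of them, at -0.070 against -0.051, -0.047 and -0.053. HLX array 2, with the highest members, had the lowest Hlx level of the 3 HLX arrays. It kept the highest median deviation of the 6 arrays after median centring (0.19), quantile normalization (0.078) and cyclic loess (0.096), whereas quantile normalization and cyclic loess turned the sign of control array 2 (0.042 and 0.033), of HLX array 1 (-0.038 and -0.031) and of HLX array 3 (0.023 and 0.017).

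**Figure D4:**
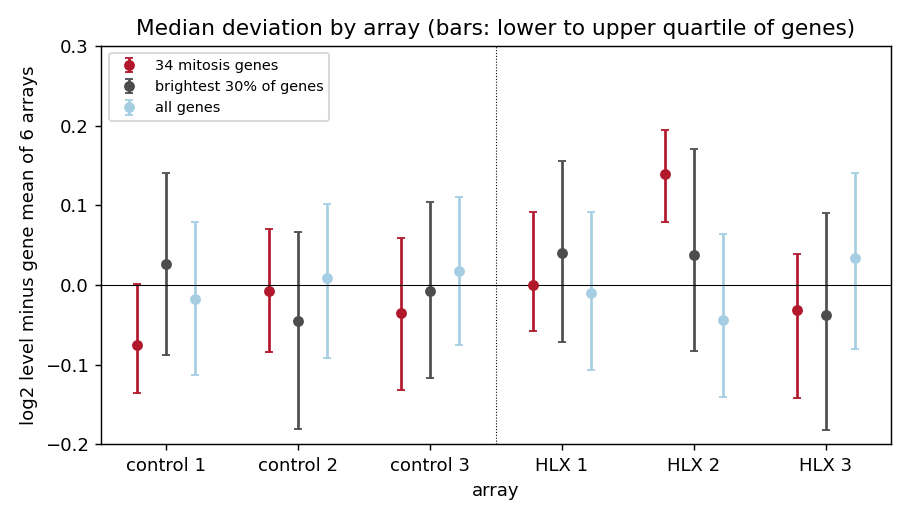
Median deviation of log2 levels from each gene's mean over 6 arrays, for the 34 mitosis genes, the brightest 30% of genes and all genes, with bars from the lower to the upper quartile of genes. The mitosis genes stand at 0.14 on HLX array 2 and between -0.075 and 0.00021 on the other 5 arrays.

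Leaving out an array moved the balance in both directions. Without HLX array 2 the members' median difference was 0.055, with 22 of 34 above 0, and all genes had a median of 0.0082. Without HLX array 3 the median was 0.11, with 31 of 34 above 0, and all genes had a median of -0.029. Without HLX array 1 it was 0.043 with 23 above 0. The number of members at an unadjusted p under 0.05 was 2 with all arrays. It fell to 1, Prc1 (2.94% of members), without HLX array 1, HLX array 2 or control array 3, where 5.06%, 4.7% and 4.25% of all genes stood at that p. Without control array 2 it was 4, Nek2, Bub1b, Ttk and Foxm1 (11.8%, against 4.04% of all genes). Without HLX array 3 it was 3, with Anln added to Prc1 and Plk1 (8.82%, against 6.36%).

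Many members moved together from array to array. Over the 561 pairs of members, the median Pearson correlation across the 6 arrays was 0.27 and 73.4% of pairs were positive, while over all pairs of genes the median was 0.029 and 52.0% were positive. Within groups, after subtraction of each group's mean, the median for members was 0.26 and 67.4% of pairs were positive. No within-group value was computed over all genes, and no value over pairs of genes at the members' level. The 6 points of a pair share array, amplification and normalization, and the members share a high signal level, so these values are a description. Top2a followed the mean of the other members most closely (r = 0.97 over 6 arrays), then Anln, Ccna2 and Bub1. Mybl2 (-0.53) and Aurkb (-0.40) ran against it, and 29 of 34 members had a positive value.

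Other genes of the mitotic machinery, and transcription regulators (MuvB, E2F and NF-Y genes), were taken from 6 lists. Of 126 measured genes 78 (61.9%) were above 0, against 47.5% of all genes and 57.2% of genes in the level range of the members. Their median was 0.093, against -0.0078 and 0.027. At an unadjusted p under 0.05 stood 7 higher and 1 lower (6.35%), against 4.8% and 7.40%, and 0 were called by limma after adjustment. These shares were near those of genes in that level range, which is the range of the members. The mean levels of the 126 genes ran more widely, from 3.6 to 12. Of 17 genes of the anaphase-promoting complex and separase 11 were above 0, led by Ube2s, the enzyme that extends ubiquitin chains for the complex, at 0.61 ± 0.16 (SE, n = 3 per group; limma unadjusted p = 0.00554, adjusted p = 0.901), and its subunit gene Anapc11 (0.34 ± 0.12). Of 21 spindle and cytokinesis genes 13 were above 0, led by Depdc1a (0.51 ± 0.14) and the kinetochore and spindle gene Knstrn (0.25 ± 0.10). Of 16 condensin and cohesin genes 9 were above 0, led by the cohesin regulators Wapl, which releases cohesin (0.25 ± 0.089), and Cdca5, or sororin, which protects it (0.72 ± 0.26).

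Of 37 further kinetochore and checkpoint genes 24 were above 0, with the centromere gene Cenpu at 0.32 ± 0.15 and the cohesion protector Sgo1 at 0.33 ± 0.16. Of 14 mitotic entry genes 9 were above 0, with the passenger complex scaffold Incenp at 0.30 ± 0.14, while Mastl, the kinase that holds a phosphatase off during mitosis, was at -0.53 ± 0.24. Of 21 regulators 12 were above 0. At an unadjusted p under 0.05 by limma stood 9.52% of this list, against 7.40% of genes in the members' level range. The 2 with the smallest p are given, Nfyc and E2f6. The other NF-Y subunit genes in the list, Nfya and Nfyb, were not among them. Nfyc, a subunit of the CCAAT-binding factor NF-Y, stood at 8.15, 8.08 and 8.34 with control and 7.80, 7.65 and 7.57 with HLX. All HLX arrays lay below all control arrays, by a difference of -0.52 ± 0.11 (SE, n = 3 per group; limma unadjusted p = 0.00212, adjusted p = 0.839). E2f6, a repressor of the E2F family, was at 0.55 ± 0.17.

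Mitotic kinesins and DNA replication genes are given for comparison. All 11 measured mitotic kinesins were above 0, with a median of 0.18, led by Kif18a (0.39 ± 0.13) and Kif20b (0.25 ± 0.12). Of 43 DNA replication genes 30 lay above 0 (median 0.057), led by Rpa1, which coats single-stranded DNA (0.42 ± 0.11), and the licensing inhibitor Gmnn (0.31 ± 0.10). None of these was called by limma, and no difference between the groups of genes was tested.

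**Figure D5:**
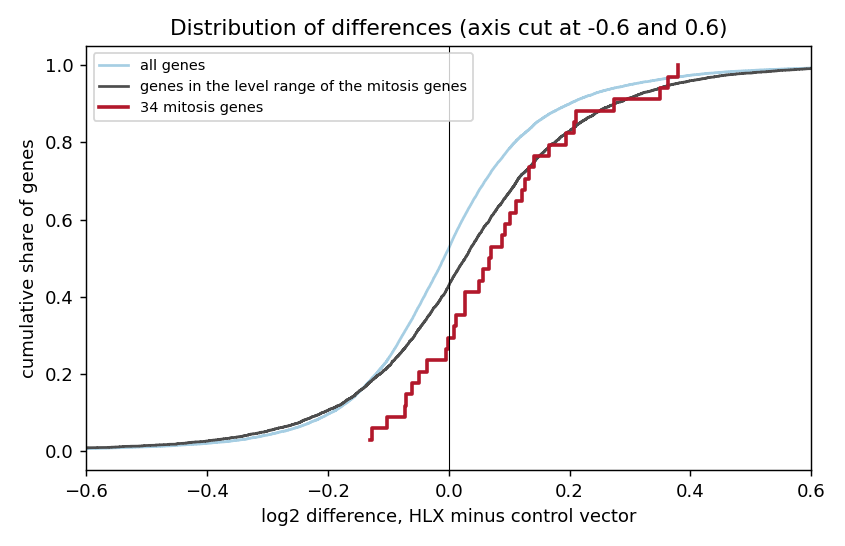
Cumulative share of genes against the log2 difference between HLX and control vector, for the 34 mitosis genes, the 4376 genes in their range of mean levels and all 19938 genes, with the axis from -0.6 to 0.6. The mitosis genes lie to the right of both other curves around 0, with medians of 0.068, 0.027 and -0.0078. Their curve meets that of genes in their level range near the upper quartile, at 0.139 against 0.142.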

How the data were processed

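Per the submitters' processing notes, the authors made the deposited log2 expression values, 1 per probeset and array, with RMA and Affymetrix Power Tools 1.178. The log2 scale was read from the values, and the sources used here do not give the build behind the probes. RMA normalizes between arrays and compresses weak signals, and 3 arrays per group limit the precision.

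Of 35556 probesets, 21789 carried 1 gene symbol in the platform annotation, 1621 several, and 12146 were unlisted. The 21789 gave 19938 genes, with the brightest probeset of a gene kept and no filter on dim ones. The vectors were compared gene by gene with limma 3.58.1 (lmFit, eBayes) in R 4.3.3. The test was 2-sided, p-values were adjusted over all genes by Benjamini-Hochberg, and the threshold was 0.05. The SE is the moderated one. The code was tested on simulated data. Python 3.11.15 with matplotlib 3.10.9 made the figures.

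The members and gene lists were chosen with earlier results of these data known, so no list was tested as a set. Every member is given, and values per array stand for the 8 members with the smallest p, the 3 lowest differences, the brightest 2, the dimmest 2 and the 4 widest ranges. From each further list the 2 genes with the smallest p are named. The alternatives were a filter on dim probesets, 3 normalizations, another variance prior, array weights, the mean of a gene's probesets, the replicate number as a block, and leaving out each array.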

Additional observations from a re-analysis of the deposited data

How the results depend on the processing

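The count of members above 0 stayed within 22 to 31 of 34 and their median difference within 0.0426 to 0.105 over the 14 alternatives. No member passed limma's adjusted threshold in any of them, and a trended and robust prior gave 1 called gene among all 19938, Hlx. Leaving out 1 array, the number of members at an unadjusted p under 0.05 ranged from 1 to 4. Under the same fits the log2 difference of Mybl2 ran from -0.402 to 0.082, turning positive without control replicate 2 (0.082) or HLX replicate 2 (0.0746). That of Cks1b ran from -0.027 to 0.165, negative without control replicate 2, and that of Cdc25c from -0.23 to 0.0228, positive without HLX replicate 3. Each of these fits used fewer samples, and the cause of the changes was not tested. Centring on the median turned the split of all genes at an unadjusted p under 0.05 from 487 higher and 471 lower to 612 and 376. With the replicate number as a block, 0 genes were called and 3 members, Ttk, Prc1 and Foxm1, stood at an unadjusted p under 0.05 (8.82%, against 6.04% of all genes). Deviations of same-numbered arrays correlated at 0.20, 0.0085 and 0.14, and those of differently numbered arrays at between -0.23 and 0.11. Whether same-numbered arrays share a culture or a batch was not tested. The 3 arrays per group limit the precision.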
